A study of Populus ussuriensis with 12 samples.

Results

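The comparison set roots of Populus ussuriensis plants overexpressing PuHox52 against roots of wild-type plants, both after 3 weeks on medium with normal nitrogen (N). It was made on 3 RNA-seq libraries a side and on every gene that reached 1 FPKM in 3 or more of these 6 libraries. FPKM is a fragment count per gene after division by the length of that gene and by how many fragments its library had mapped. This rule kept 22850 of the 34699 gene IDs in the table. Of the 11849 IDs left out, 4061 were listed at 0 in all 6 libraries. The third-highest value of an ID was 1 FPKM just inside the threshold and 0.9999 FPKM just outside it. The groups used are PuHox52-OE at normal N and wild type (WT) at normal N, and, for reference beside them, PuHox52-OE at low N and WT at low N, with 3 libraries each. All plants were clonally propagated in vitro and carried through the same pre-culture, and the libraries within each group are biological replicates per the design text. Neither the promoter that drives PuHox52 nor the number of independent transgenic lines is given in the sources used here.

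PuHox52 is named as a homeobox gene. Homeobox proteins are transcription factors that bind DNA through a homeodomain and raise or lower the transcription of the genes they bind. A factor expressed above its usual level can act on its own targets and, through them, on genes further down. RNA from whole roots does not part the direct from the indirect changes, and fewer cells of a type cannot be told apart from less RNA per cell.

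The Potri IDs of the table come without gene names. With no annotation used here, each gene appears under its ID and without a role. The row of the overexpressed gene is not marked either, and the root label was not checked against marker genes. Relative depth, inferred from the steps of the lowest FPKM values, ran from 1.04 to 1.22 in the overexpression libraries and from 1 to 1.09 in the wild-type libraries, with wild-type replicate 1 set to 1. Libraries correlated at 0.995 to 0.996 within overexpression and at 0.991 to 0.995 within wild type, against 0.971 to 0.975 between the genotypes (Pearson, across genes, log2 values). The median SD of a gene between the libraries of a group was 0.0753 in overexpression and 0.0960 in wild-type roots on the log2(FPKM + 1) scale.

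One transcript stood far above every other change. Potri.014G103000 had 2392, 2274 and 2251 FPKM in overexpression roots, against 6.71, 8.14 and 7.31 FPKM in wild-type roots. The mean was 312-fold higher in overexpression roots, at 2305 ± 75.6 FPKM against 7.39 ± 0.719 FPKM (SD, n = 3 each). Its log2 fold change of 8.11 ± 0.0661 (SE; limma, Benjamini-Hochberg adjusted p = 6.42e-15) was followed by 2.60 for the next ID, so that no second gene came near it. This single ID held 0.368% of all summed FPKM in overexpression libraries and 0.00118% in wild-type libraries. The table does not say whether it is the overexpressed gene.

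The next rise on the log2(FPKM + 1) scale, of Potri.002G022600, gave 60.9, 58.8 and 66.7 FPKM in overexpression roots, against 8.28, 10.4 and 9.52 FPKM in wild-type roots. The groups were well apart, with a 6.60-fold higher mean in overexpression roots and a log2 fold change of 2.60 ± 0.0800 (SE; limma adjusted p = 1.28e-09). Only 3 IDs rose by at least 2 on the log2(FPKM + 1) scale, these and Potri.012G049900, which is named because the count is so small. Potri.012G049900 lay at 10.7, 9.86 and 9.44 FPKM in overexpression roots, against 0.703, 0.924 and 0.843 FPKM in wild-type roots, all below 1 FPKM. Its mean was 12.1-fold higher in overexpression roots. Adding 1 shrinks the ratios of low genes, so the order by ratio of means differs. Potri.019G094000 was 21.6-fold higher, at 1.66 against 0.0769 FPKM, with a log2 fold change of 1.30.

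The deepest fall on the log2(FPKM + 1) scale was that of Potri.018G047300, with 1.45, 1.16 and 1.37 FPKM in overexpression roots, against 72.3, 76.1 and 70.7 FPKM in wild-type roots. The mean was 55.0-fold lower in overexpression roots, a log2 fold change of -4.99 ± 0.0709 (SE; limma adjusted p = 1.86e-12). Potri.014G066300 followed on this scale, with 4.18, 4.23 and 5.98 FPKM in overexpression roots, against 70.7, 72.2 and 64.5 FPKM in wild-type roots. Its mean was 14.4-fold lower in overexpression roots (a log2 difference of -3.61 ± 0.105 SE, with a limma adjusted p = 1.59e-09). In both cases a transcript that was well expressed in wild-type roots fell to a low level in every overexpression library.

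**Figure D1:**
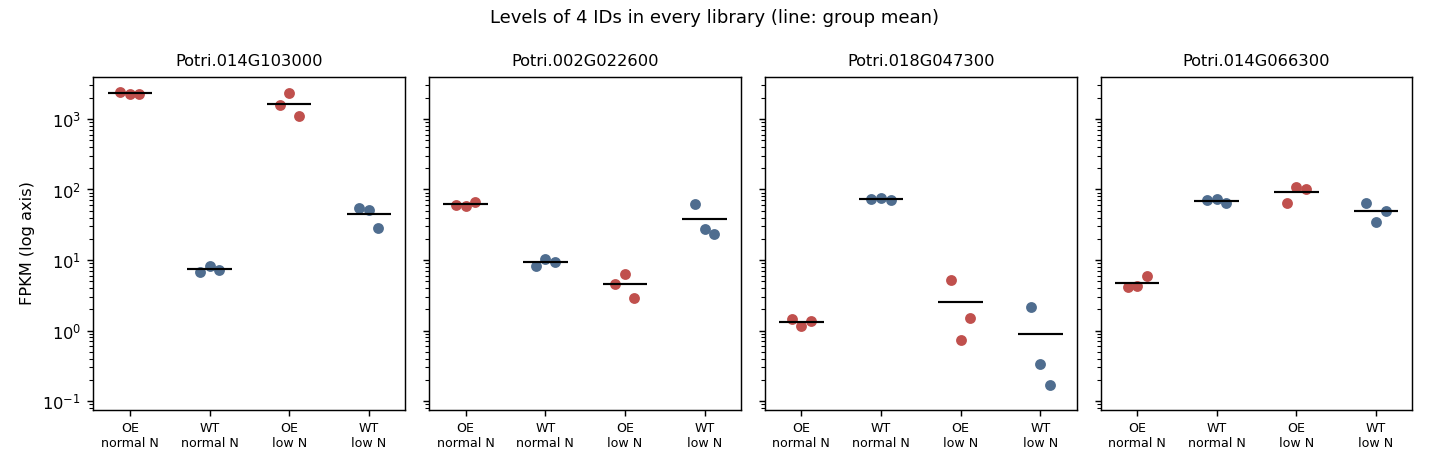
FPKM (log axis) of the 2 IDs with the largest rise and the 2 with the largest fall, in every library of the 4 groups, with the group mean as a line. The 4 IDs were chosen among genes whose overexpression and wild-type libraries do not overlap at normal N. Potri.014G103000 lies at 2251 to 2392 FPKM in overexpression roots at normal N.

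Across all genes, 2470 were called higher and 5880 lower in overexpression roots (limma, adjusted p under 0.05), which is 10.8% and 25.7% of those tested and 36.5% together. Most changes were small. The median size was 0.35 on the log2 scale for the rises and 0.40 for the falls, and the median over all genes tested was -0.08. Which direction prevailed depended on the scaling. Rises made up 29.6% of the calls on the FPKM values as deposited, 49.7% once libraries were scaled by median of ratios, and 53.1% under quantile normalization. With a spread shared by all 12 libraries, 1630 genes were called higher and 4253 lower. The direction of a gene with a small change should therefore be read relative to the scaling.

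The large changes were mostly falls. With a size of at least 1 in log2, 61 genes were called higher (0.267% of those tested) and 507 lower (2.22%). The number of large changes depended on the pseudocount, with 127 rises and 920 falls at 0.1, and a filter at 5 FPKM left 335 falls. At a size of at least 2 there were 3 rises and 56 falls, and at a size of at least 3 there were 1 and 8. The 3 libraries of one genotype lay wholly on one side of the other for all 61 and all 507 genes. The lists were chosen on these same libraries, so this separation was largely set by the choice. Over all genes tested, 15.3% had every overexpression library above and 33.9% every overexpression library below wild type. Median-of-ratios scaling gave 88 rises and 423 falls of this size, and quantile normalization gave 104 and 361, so the excess of large falls was found under each scaling. All 61 rises were among the 88, and all of the 423 falls were among the 507. Median-of-ratios scaling moved the fold changes up at a fixed limit, so this nesting was largely set in advance.

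The lists did not consist of faint transcripts alone. In the genotype where they were higher, the 61 risen genes had a median level of 11.6 FPKM in overexpression roots and the 507 fallen genes one of 9.87 FPKM in wild-type roots. Over all genes tested, the median was 8.68 FPKM in overexpression and 9.48 FPKM in wild-type libraries. At least 5 FPKM was reached by 47 of the 61 and by 349 of the 507, and at least 50 FPKM by 12 and by 61. These levels were read in the genotype where the genes were chosen as higher, and the same counts over all genes were not made. The median log2 fold change was 1.17 for the rises and -1.31 for the falls, values that the choice of the lists sets.

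**Figure D2:**
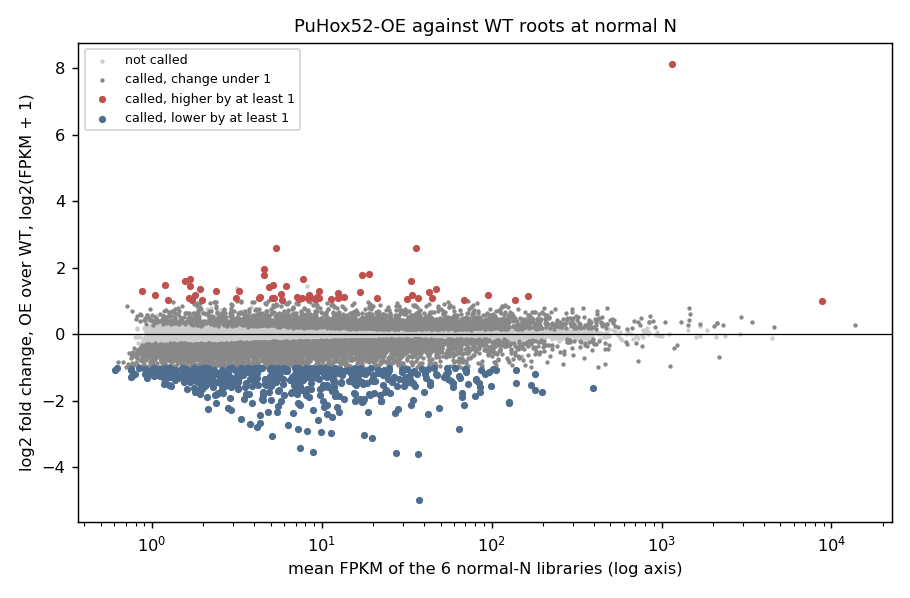
Log2 fold change of overexpression over wild-type roots at normal N against the mean FPKM of the 6 libraries (log axis), 1 point per gene tested, with calls of at least 1 on the log2 scale in colour. The point far above the rest is Potri.014G103000 at 8.11, and 507 falls stand against 61 rises.

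The direction of change went with the expression level. Among 2626 genes with a mean under 2 FPKM over the 6 libraries, 5.71% were called higher and 30.8% lower in overexpression roots. Among 3786 genes of 20 to 50 FPKM the shares were 16.4% and 23.1%. Among 1024 genes of at least 100 FPKM they were 28.03% and 17.0%, so that with the deposited values rises outnumbered falls only in the classes from 50 FPKM upwards. The median log2 fold change ran from -0.17 in the lowest class to 0.03 in the highest. Median-of-ratios scaling moved all classes up without removing the order, with medians from -0.11 to 0.12, and shares in the highest class of 38.5% higher and 12.01% lower. Rises then outnumbered falls from 10 FPKM upwards, with 18.02% higher and 15.6% lower at 10 to 20 FPKM. Weakly expressed genes also have fewer fragments behind each value, and the part of this in the trend was not tested. The 1 FPKM filter also let in genes that reached this level in all 3 libraries of a single genotype and in none of the other. There were 61 such genes in overexpression and 424 in wild-type roots, of which 55 and 406 were called, beside 36.5% of all genes tested. The groups of such genes do not overlap by definition, so many calls among them were largely set by the choice. The share of these genes among the calls in the lowest class was not counted.

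**Figure D3:**
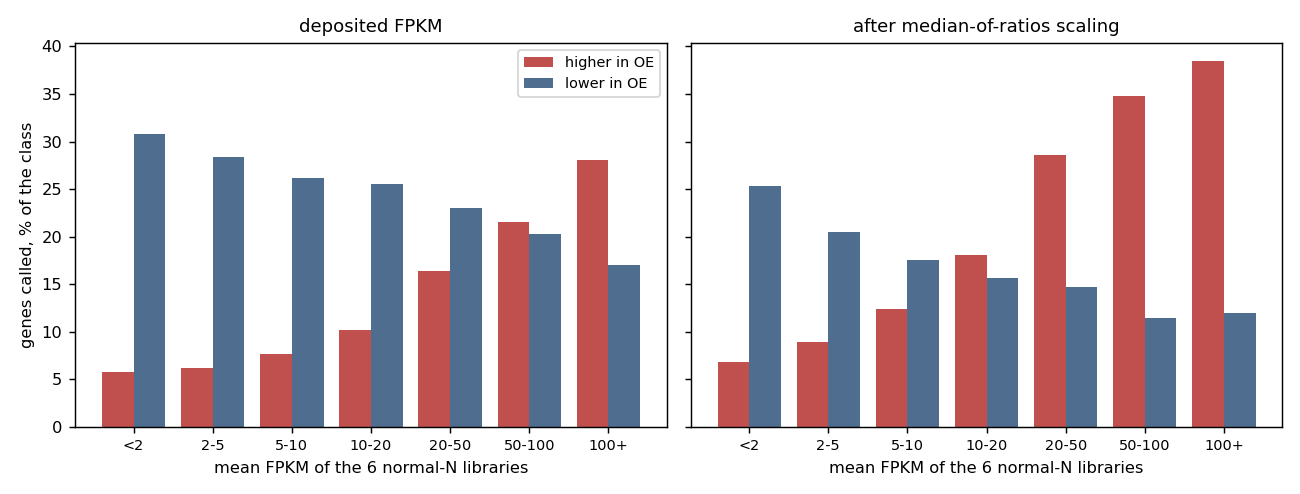
Share of genes called higher or lower in overexpression roots at normal N, by class of mean FPKM, with the deposited values (left) and after median-of-ratios scaling (right). The share of higher calls climbs from 5.71% to 28.03% from the lowest to the highest class with the deposited values.

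The same shift showed in how the transcript pool was divided. The 10 most abundant genes of each library held 8.54% ± 0.101 of the summed FPKM in overexpression roots and 6.89% ± 0.293 in wild-type roots (SD, n = 3 each). The 100 most abundant held 21.3% ± 0.269 in overexpression roots and 18.7% ± 0.547 in wild-type roots, and the libraries of the genotypes did not overlap in either share. The number of genes with at least 1 FPKM was 22144 ± 38.2 in overexpression roots and 22913 ± 53.2 in wild-type roots.

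Part of the genotype difference in the top shares came from a single ID. Potri.019G100001, singled out after its values were seen, had 11664, 11875 and 11767 FPKM in overexpression roots, against 5718, 6328 and 5504 FPKM in wild-type roots. It took 1.88% of the summed FPKM in overexpression roots and 0.938% in wild-type roots, and its log2 fold change was 1.01 ± 0.0645 (SE; limma adjusted p = 3.91e-07). The difference also stood at low N, with 9659, 9386 and 8788 FPKM in overexpression roots, against 2892, 2682 and 3904 FPKM in wild-type roots (log2 fold change 1.57; limma adjusted p = 0.000186).

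Of the 1120 genes whose mean reached 100 FPKM in either genotype, 323 were called higher and 211 lower in overexpression roots, 28.8% and 18.8%. The large changes among them were again mostly falls, 26 against 5 rises. A gene could enter this set through the genotype in which it was higher, so a fall could enter on its wild-type level alone. Classed instead by their average over all 6 libraries, the genes from 100 FPKM upwards held 11 large falls and 4 large rises. Beside Potri.014G103000 and Potri.019G100001 the 5 rises were Potri.008G073400, Potri.013G001600 and Potri.001G176000, named because they are so few. Their means were 132.0 ± 3.99, 226.3 ± 6.60 and 185.9 ± 7.12 FPKM in overexpression roots, against 58.0 ± 2.92, 102.0 ± 11.8 and 90.0 ± 5.54 FPKM in wild-type roots (SD, n = 3 each). The steepest of the 26 falls was that of Potri.004G200400, with 14.7, 15.8 and 14.4 FPKM in overexpression roots, against 105.3, 125.6 and 109.5 FPKM in wild-type roots. The most abundant of them was Potri.001G239650, with 190.4, 184.3 and 205.1 FPKM in overexpression roots, against 564.3, 669.8 and 568.8 FPKM in wild-type roots.

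Some transcripts passed the level of 1 FPKM in one genotype alone. Counting genes at 1 FPKM or more in all 3 libraries of one genotype and less in all 3 of the other, 61 genes were found in overexpression roots alone and 424 in wild-type roots alone. These 61 shared 12 genes with the 61 large rises. After median-of-ratios scaling the counts were 68 and 355. With a wider gap, at least 2 FPKM against less than 0.5 FPKM, there was 1 gene in overexpression roots and 22 in wild-type roots. The 1 gene, Potri.005G030100, lay at 3.13, 2.62 and 2.78 FPKM in overexpression roots, against 0.279, 0.354 and 0.209 FPKM in wild-type roots. Most of these genes therefore lay close to the threshold in both genotypes, and the 424 had a median of 0.611 FPKM in overexpression and 1.54 FPKM in wild-type libraries. At low N, 173 of the 424 (40.8%) reached 1 FPKM in all 3 overexpression libraries and 206 (48.6%) in all 3 wild-type libraries. Of the 61 genes found in overexpression roots alone, 29 (47.5%) and 35 (57.4%) did so. Over all genes tested the shares were 94.2% in overexpression and 94.6% in wild-type roots. Both lists were chosen close to 1 FPKM, so lower shares at low N are largely set by that choice.

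Large changes were next counted by the order of the IDs. The running number of a Potri ID orders genes along a chromosome of the poplar reference. Of the 507 genes lower by at least 1, 77 (15.2%) had a gene of the same list as the tested ID next to them, while 4.32% of all tested genes had such a neighbour. They formed 28 pairs and 7 runs of 3. The run with the deepest fall went from Potri.006G138700 to Potri.006G138900. Its middle member, Potri.006G138800, had 1.80, 1.79 and 1.71 FPKM in overexpression roots, against 19.3, 22.5 and 20.8 FPKM in wild-type roots. Near-identical copies next to each other can share reads, so the members of such a run may not be separate measurements.

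The 61 large rises held 2 such pairs, 4 genes or 6.56%, against 0.525% of all tested genes with a neighbour in that list. One pair joined Potri.002G022600 to Potri.002G022500, which lay at 1.70, 1.56 and 2.21 FPKM in overexpression roots, against 0.0767, 0.572 and 0.141 FPKM in wild-type roots. The other held Potri.019G094000 and Potri.019G094100. Potri.019G094100 lay at 6.92, 8.37 and 8.16 FPKM in overexpression roots, against 1.09, 1.22 and 1.56 FPKM in wild-type roots.

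By the prefix of the ID, 013G differed from the rest. Among its genes 24.2% were called higher, while the other 19 prefixes, unplaced IDs included, lay between 5.81% and 12.6%. This came from the run up to Potri.013G032200, which was known from these data beforehand: 132 of its 204 tested genes were higher and 11 lower, against 12.3% higher in the rest of 013G. Potri.013G001600, named above among the abundant rises, lies in this run.

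The large changes at normal N were then followed into the low-N libraries, which had no part in choosing them. Of the 61 risen genes, 19 (31.1%) were called higher in overexpression roots at low N and 17 (27.9%) lower, beside 15.1% and 24.9% of all genes tested (limma on the 6 low-N libraries). Of the 507 fallen genes, 87 (17.2%) were called higher and 71 (14.0%) lower at low N, and 349 were not called. Their median log2 fold change at low N was 0.15, beside -0.09 for all genes tested. Without overexpression low-N replicate 1 it was 0.02, beside -0.11 for all genes tested. With median-of-ratios scaling it was 0.22, beside -0.0034. Within groups at low N, genes had a median SD of 0.125 in overexpression and 0.104 in wild-type roots on the log2(FPKM + 1) scale, above the normal-N values.

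The level of the 507 genes showed where they stood in each library. Their median, on the log2(FPKM + 1) scale, was 1.92, 1.96 and 1.93 in overexpression roots and 3.47, 3.53 and 3.40 in wild-type roots at normal N, which is how they were chosen. At low N it was 2.96, 2.51 and 2.33 in overexpression roots and 2.43, 2.32 and 2.29 in wild-type roots. So at low N both genotypes lay between the normal-N values, and overexpression low-N replicate 1 lay highest. The 61 risen genes had medians of 3.01, 3.02 and 3.11 in overexpression and 2.89, 2.67 and 2.72 in wild-type roots at low N.

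**Figure D4:**
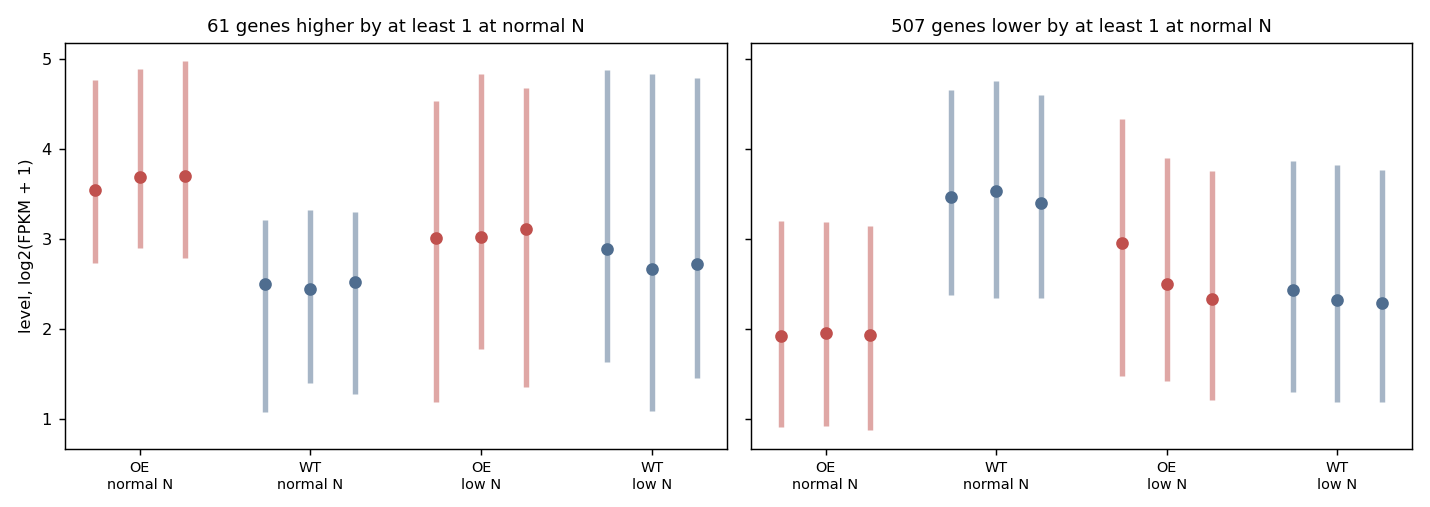
Level of the genes with large changes at normal N, on the log2(FPKM + 1) scale, in each of the 12 libraries, as the median (point) and the middle 50% of genes (bar). The 507 fallen genes lie at a median of 1.92 to 1.96 in overexpression and 3.40 to 3.53 in wild-type roots at normal N, and the low-N libraries lie between.

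One low-N library stood apart for these genes. Overexpression low-N replicate 1 was at least 1 (log2) above the mean of the other two libraries of its group for 96 of the 507 fallen genes (18.9%), against 1.18% of all genes tested. These 96 made up 35.7% of the 269 genes that did so. In the 3 wild-type low-N libraries the same count lay between 3 and 9 of the 507. Potri.006G138800 was such a gene, with 17.4, 2.37 and 0.818 FPKM in overexpression roots at low N, against 1.78, 1.04 and 1.05 FPKM in wild-type roots at low N. Potri.004G200400 was another, at 66.4, 22.5 and 16.0 FPKM in overexpression roots at low N, against 15.3, 6.999 and 9.79 FPKM in wild-type roots at low N. What sets this library apart was not tested. It takes no part in the normal-N calls.

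**Figure D5:**
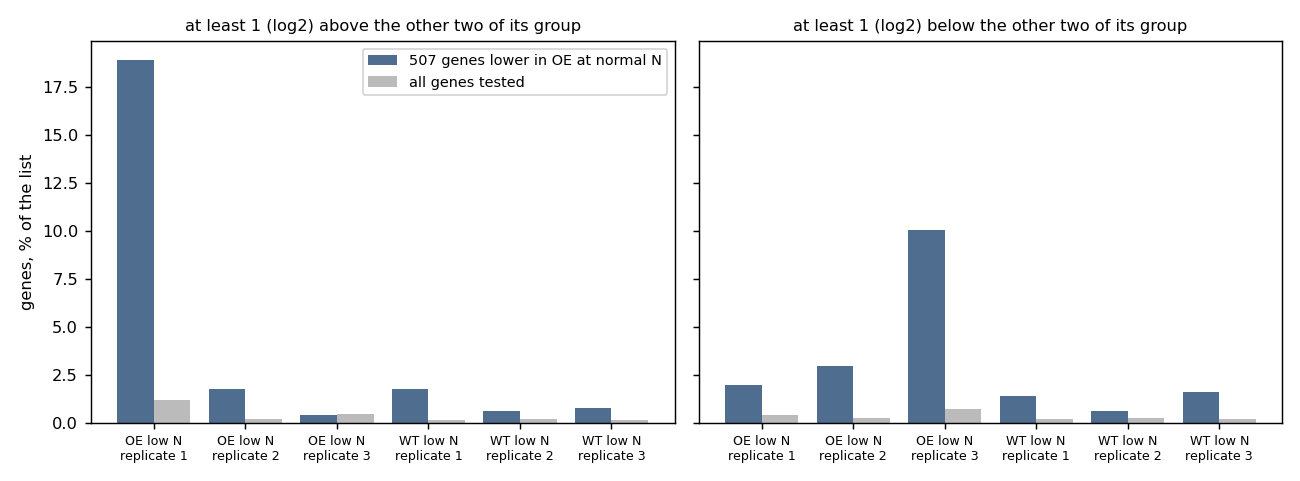
Share of genes lying at least 1 (log2) above (left) or below (right) the mean of the other two libraries of the same group, for each low-N library, among the 507 fallen genes and among all genes tested. Overexpression low-N replicate 1 reaches 18.9% on the left, against 1.18% of all genes. Overexpression low-N replicate 3 reaches 10.1% on the right, which is 51 of the 507 genes. Of these 51, 49 are also counted on the left for replicate 1. High values in replicate 1 raise the mean that replicate 3 is compared with, so these shares are not independent.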

How the data were processed

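The deposited values are FPKM in 1 table with 1 column per library, as the name of the authors' table says. Columns were assigned by the short label in each sample's description, and 0 other sample columns were present. TopHat and DESeq2 are named in the submitters' processing notes, with neither version nor role. The genome build, the annotation and the FPKM program were not given in the sources used here. Sequencing was done by a pair of companies, and which one handled a library is not stated. The genes passing the threshold of 1 FPKM in 3 or more of the 6 normal-N libraries were taken to log2(FPKM + 1) and fitted with limma 3.58.1 in R 4.3.3 (lmFit, eBayes with trend and robust estimation), with the Benjamini-Hochberg adjustment over all genes tested. The fold changes are on this scale and understate the change of low genes. The interaction came from a limma fit with 1 mean per group over all 12 libraries. The procedure was tested on simulated data with independent noise and no general shift between the groups. That test does not bear on the choice of scaling. The files give no absolute depth and hence allow no counting interval. Relative depth was inferred from the ratios of values under 0.15 FPKM, with which 98.2% of 1278 low genes had all values within 0.1 of whole fragments, against 13.5% at equal depths. The lowest value of a gene was taken as 1, 2 or 3 fragments, whichever fitted best. The depths came from these same genes, so the match was partly set in advance. Named IDs are the 2 largest rises and falls among calls whose groups are apart and whose higher mean reaches 5 FPKM. Other IDs were named after their values were seen. Gene lists by role and marker lists were not run, since no annotation was given. The comparison, its rule and the lists were chosen with earlier results of these data known.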

Additional observations from a re-analysis of the deposited data

Results flagged for a closer look

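All 4 named IDs had a genotype effect that was not the same at low and at normal N, by the interaction in limma over 24570 genes and 12 libraries (effect at low N minus effect at normal N, log2 scale). The interaction was called for 8832 of these genes (35.9%). The IDs were chosen for their large effect at normal N, which enters the interaction. For Potri.014G103000 the interaction was -2.94 ± 0.395 (SE; limma adjusted p = 0.000244), with 1557, 2309.8 and 1091 FPKM in overexpression roots at low N, against 55.4, 51.0 and 28.2 FPKM in wild-type roots at low N. For Potri.002G022600 it was -5.31 ± 0.460 (SE; limma adjusted p = 1.18e-05), with 4.61, 6.31 and 2.90 FPKM in overexpression roots at low N, against 62.6, 27.5 and 23.5 FPKM in wild-type roots at low N. For Potri.018G047300 it was 5.81 ± 0.642 (SE; limma adjusted p = 6.33e-05), with 5.29, 0.726 and 1.503 FPKM in overexpression roots at low N, against 2.15, 0.335 and 0.169 FPKM in wild-type roots at low N. For Potri.014G066300 it was 4.49 ± 0.325 (SE; limma adjusted p = 2.46e-06), with 65.2, 106.9 and 100.8 FPKM in overexpression roots at low N, against 64.1, 34.9 and 49.4 FPKM in wild-type roots at low N. Within the low-N libraries the log2 fold changes of the 4 IDs, in this order, were 5.16, -2.71, 0.82 and 0.88. The limma adjusted p values were 7.97e-05, 0.00212, 0.285 and 0.0362, so Potri.018G047300 was not called at low N.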

How the results depend on the processing

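The 4 named IDs kept their direction and stayed called under all 14 alternatives at normal N, and their interactions under both scalings. A pseudocount of 0.1 gave 127 rises and 920 falls of at least 1, and a filter at 5 FPKM gave 335 such falls, since it tests fewer genes. Median-of-ratios scaling gave 3958 higher calls, a share of 49.7% higher and a median over all genes of -0.00080. Quantile normalization gave 4090 higher and 3611 lower calls, a share of 53.1% higher, 104 rises of at least 1 and a median of 0.022. The median was -0.063 with no filter and -0.057 with the filter at 5 FPKM. A spread shared by all 12 libraries gave 1630 higher calls and 5883 calls in all, against 8350 in the fit on 6 libraries. Leaving out each library in turn gave 1885 to 2863 higher and 4510 to 6120 lower calls, 61 to 73 rises and 503 to 535 falls of at least 1, a share of 28.6% to 31.9% higher and a median of -0.09 to -0.07. The replicate block gave 2343 higher and 5549 lower calls. Same-numbered libraries of the genotypes correlated in their deviations at 0.0361, -0.0527 and -0.0937, and not every library correlated best with its own number, so the numbers were not taken to pair the samples. Levels near 1 FPKM rest on few fragments, which limits the detection counts. Settings for the overexpressed homeobox gene and the lists by role were not run.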

Other observations

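Around Potri.014G103000, the 10 tested IDs on each side did not all move one way. Of these 20 genes, 3 were called higher and 9 lower in overexpression roots, with log2 fold changes from -2.79 to 0.56, while 10.8% and 25.7% of all genes tested were called higher and lower. The lowest was that of Potri.014G102700, singled out after its values were seen, with 0.344, 0.341 and 0.213 FPKM in overexpression roots, against 8.21, 7.45 and 8.30 FPKM in wild-type roots at normal N. At low N it lay at 0.699, 0.425 and 1.27 FPKM in overexpression roots, against 0.576, 0.490 and 0.495 FPKM in wild-type roots.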
